A study of Mus musculus with 2 samples.

Results

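The cation-chloride cotransporters set how much chloride a neuron holds, and the WNK kinases set how active these cotransporters are. The 9 genes described here were taken by name: the cotransporter genes Slc12a5, Slc12a2, Slc12a4, Slc12a7 and Slc12a9, the kinase genes Wnk1, Wnk2 and Wnk3, and the kinase gene Stk39. All 9 were found among the 55536 genes of the gene tables, with 83 annotated transcripts between them. The RNA was total RNA of whole hippocampus, taken at postnatal day 14 from male B6CASTF1/J mice, a cross between C57BL/6J and CAST/EiJ, and the 2 libraries, biological replicates 2 and 1, form a single group with no treatment in its labels. Each label names 3 males of its own and 300 ng of RNA, without saying whether the RNA of the 3 was pooled. With 1 group and 1 age there is no comparison between conditions, so the values below are levels in this tissue, ratios between genes or transcripts, and differences between the libraries. A value with ± is the mean and SD of both libraries (n = 2).

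NKCC1, the product of Slc12a2, carries sodium, potassium and chloride into the cell, and KCC2, the product of Slc12a5, carries potassium and chloride out. The balance of both sets whether opening a GABA-A receptor lets chloride in or out, and in rodent forebrain KCC2 is known to rise and NKCC1 to lose weight over the first postnatal weeks. WNK kinases switch on SPAK, the product of Stk39, and its relative OSR1, which phosphorylate the cotransporters: this activates NKCC1 and inhibits the potassium-chloride cotransporters. KCC2 is made in a pair of forms, KCC2a and KCC2b, from separate first exons, and KCC2b is known as the main form of the mature brain.

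Exons that tell the forms of Slc12a5 (ENSMUSG00000017740.17, mm10, chr2:164960802-164999731, plus strand) apart are shown first, since the shares below rest on them. KCC2b is represented by the complete coding transcript Slc12a5-201, which starts at base 164967983 and encodes 1115 residues in 26 exons. KCC2a is represented by Slc12a5-209, with 1138 residues in 26 exons and a start at base 164960824, and by Slc12a5-207, with 1133 residues in 25 exons and a start at base 164960846. The coding part of the KCC2a first exon (chr2:164960883-164961003) holds 40 whole codons, and Slc12a5-209 encodes 23 residues more than Slc12a5-201. Capitals mark the start codon. The small exon at chr2:164996864-164996878, 15 bases long, is in Slc12a5-201 and Slc12a5-209 and absent from Slc12a5-207. Both are GENCODE M21 transcript sequence, plus strand.
KCC2a first exon: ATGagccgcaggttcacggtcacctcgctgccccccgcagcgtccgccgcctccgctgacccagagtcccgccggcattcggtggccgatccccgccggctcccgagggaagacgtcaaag
Small exon: ggagtgggaaaactt

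The windows around the 2 starts, from 250 bases before the start to 50 after it, are shown because the data give RNA from both. They were taken from RefSeq on GRCm38.p6, plus strand, and lie 7.142 kb apart. Promoter windows in that table were matched for 8 of the 9 genes. Capitals mark matches, on either strand, to the motifs searched, which were CACGTG (the E-box core), GGGCGG (a GC box), TATAAA and GCGNGGGCG (an early growth response motif). A GGGCGG match can overlap the end of a GCGNGGGCG match.
KCC2b window, chr2:164967738-164968037: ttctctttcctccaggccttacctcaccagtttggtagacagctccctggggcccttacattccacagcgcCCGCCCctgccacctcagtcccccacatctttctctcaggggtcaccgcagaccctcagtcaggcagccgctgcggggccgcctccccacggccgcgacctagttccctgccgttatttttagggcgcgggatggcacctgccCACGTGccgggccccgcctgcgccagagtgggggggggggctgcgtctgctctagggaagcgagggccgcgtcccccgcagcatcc
KCC2a window, chr2:164960596-164960895: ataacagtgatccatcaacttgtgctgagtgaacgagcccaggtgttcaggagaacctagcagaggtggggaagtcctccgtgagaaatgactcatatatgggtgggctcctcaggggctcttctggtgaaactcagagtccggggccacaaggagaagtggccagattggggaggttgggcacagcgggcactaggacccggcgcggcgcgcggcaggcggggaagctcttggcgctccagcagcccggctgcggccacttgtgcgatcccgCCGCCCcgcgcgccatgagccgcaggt

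The KCC2b window held 1 CACGTG, beginning at position -36 from the start, and 1 GGGCGG match at position -179. The KCC2a window held 1 GGGCGG match, at position 23, and no CACGTG. Neither held TATAAA or GCGNGGGCG. Among the 32851 windows of the table, 7.15% held CACGTG, 35.7% GGGCGG, 13.6% TATAAA and 5.55% GCGNGGGCG. Both windows had 21 CpG, against a median of 7 over the table, and GC contents of 68.3% (KCC2b) and 63.7% (KCC2a), against a median of 52.7%. The E-box is the motif bound by the factors USF1 and USF2, whose genes Usf2 and Usf1 had 51.3 ± 0.919 and 56.1 ± 0.983 TPM here. A match describes letters and not a bound site.

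Levels are given in TPM, transcripts scaled by length to a fixed total per library, so that they can be compared between genes. Replicate 2 had 31910050 expected counts and replicate 1 had 29296141, where an expected count is an estimated number of reads. All 9 genes had a deposited posterior SD of 0 for their gene counts, so none of their reads were shared with another gene in the authors' estimate. Excitatory neuron genes marked the tissue: Slc17a7, the vesicular glutamate transporter, had 687 TPM in replicate 2 and 663 in replicate 1. Prox1 of dentate granule neurons had 63.0 and 43.85 TPM and Fibcd1 of CA1 neurons 57.7 and 46.7 in replicates 2 and 1, both chosen after their values were seen.

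Slc12a5 was the most abundant of the 9, with 134.93 TPM in replicate 2 and 139.07 in replicate 1 (137 ± 2.93), from 12493 and 11132 counts. It ranked 651 among the 14865 genes with at least 1 TPM in both libraries. The kinase genes came next. Wnk1 (ENSMUSG00000045962.16, chr6:119923969-120038672, minus strand), the widely expressed member of its family, had 63.6 and 66.3 TPM (65.0 ± 1.91) in replicates 2 and 1. Wnk2 (ENSMUSG00000037989.15, chr13:49036303-49148014, minus strand), known from the brain, had 43.7 and 41.8 TPM (42.8 ± 1.33). Stk39 (ENSMUSG00000027030.15, chr2:68210445-68472268, minus strand), which encodes SPAK, had 23.8 and 22.1 TPM (23.0 ± 1.24).

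A middle group of 4 genes lay close together. Wnk3 (ENSMUSG00000041245.13, chrX:151198078-151320152, plus strand) had 14.52 TPM in replicate 2 and 14.5 in replicate 1, a mean of 14.51 ± 0.0141. Slc12a2 (ENSMUSG00000024597.11, chr18:57878678-57946821, plus strand), the gene of NKCC1, had 12.96 and 15.57 TPM (14.3 ± 1.85). Slc12a9 (ENSMUSG00000037344.14, chr5:137314558-137333597, minus strand), a family member without a settled transport role, had 13.6 and 14.9 TPM (14.2 ± 0.898). Slc12a4 (ENSMUSG00000017765.17, chr8:105943590-105966097, minus strand), the gene of the widely expressed KCC1, had 12.2 and 11.8 TPM (12.005 ± 0.332). Their library values overlapped, apart from those of Slc12a4 against Wnk3, Slc12a2 and Slc12a9.

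Slc12a7 (ENSMUSG00000017756.9, chr13:73733094-73816754, plus strand), the gene of KCC4, was lowest, with 1.97 TPM in replicate 2 and 2.80 in replicate 1 (2.38 ± 0.587) from 152 and 131 counts. Its rank was 12904 of 14865. The spread of its TPM came with an unequal assignment of reads to short transcripts, described below, while its counts differed little.

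**Figure D1:**
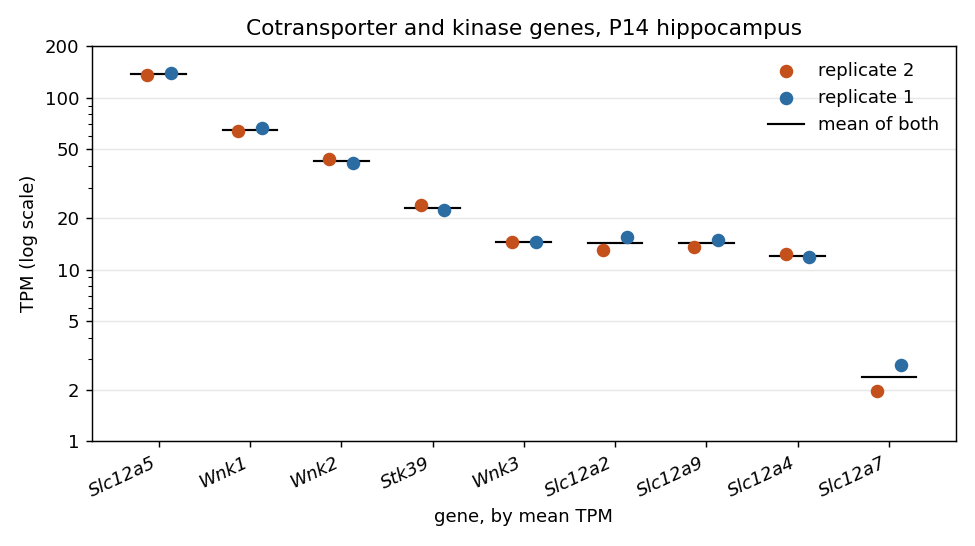
Level of each gene in TPM (log axis) in replicate 2 (left point) and replicate 1 (right point), with the mean of both libraries as a line, genes ordered by mean. Slc12a5 stands at 137 TPM, Slc12a7 at 2.38, and Wnk3, Slc12a2, Slc12a9 and Slc12a4 lie between 12.005 and 14.51.

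Neighbours in this order were set apart where the log2 ratio of TPM had the same sign in both libraries and its mean exceeded 2 SD. By that rule 5 of the 8 steps differed. Slc12a5 exceeded Wnk1 2.11-fold (log2 1.08 ± 0.012), Wnk1 exceeded Wnk2 1.52-fold (0.60 ± 0.087), Wnk2 exceeded Stk39 1.86-fold (0.90 ± 0.033) and Stk39 exceeded Wnk3 1.58-fold (0.66 ± 0.076). At the low end Slc12a4 exceeded Slc12a7 5.11-fold (2.35 ± 0.399). The steps among Wnk3, Slc12a2, Slc12a9 and Slc12a4 had log2 ratios of 0.03 ± 0.19, -0.00 ± 0.096 and 0.25 ± 0.13 and were not set apart. With 2 libraries the smallest two-sided p of an exact sign-flip test is 0.5, so none was run.

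The step from Wnk1 to Wnk2 depended on which transcripts were counted. Summed over transcripts annotated with a complete coding sequence, an alternative chosen after seeing the data, Wnk2 had 33.85 and 31.7 TPM and Wnk1 27.0 and 25.8 TPM in replicates 2 and 1. The log2 ratio of Wnk1 to Wnk2 then turned to -0.31 ± 0.021. In the kallisto-layout table, a second set of transcript estimates deposited with the series, the ratio was 0.51 ± 0.293 and no longer exceeded 2 SD.

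Among the potassium-chloride cotransporter genes, Slc12a5 held 90.5% of the summed TPM of Slc12a5, Slc12a4 and Slc12a7 in both libraries (90.5% ± 0.0316). It exceeded Slc12a4 11.4-fold (log2 3.51 ± 0.071), Slc12a7 58.3-fold (5.87 ± 0.328) and Slc12a9 9.63-fold (3.27 ± 0.060). The log2 ratio of Slc12a5 to Slc12a2 was 3.38 in replicate 2 and 3.16 in replicate 1, and the summed TPM of Slc12a4, Slc12a5 and Slc12a7 exceeded that of Slc12a2 10.7-fold (3.41 ± 0.157). The gap between Slc12a5 and Slc12a2 was thus wider in replicate 2, where Slc12a2 was lower.

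Wnk1, Wnk2 and Wnk3 summed to 121.86 TPM in replicate 2 and 122.66 in replicate 1 (122 ± 0.566). Wnk1 held 53.1% ± 1.32 of that sum, Wnk2 35% ± 1.25 and Wnk3 11.9% ± 0.0665. Wnk2 exceeded Wnk3 2.95-fold (log2 1.56 ± 0.043). Stk39 exceeded Oxsr1, which encodes the related kinase OSR1, 1.77-fold (0.82 ± 0.146), with Oxsr1 at 12.6 and 13.4 TPM in replicates 2 and 1. The ratios of levels within 1 library set genes side by side and say nothing of protein or activity.

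Both first exons of Slc12a5 were in use. Transcripts with the KCC2b first exon had 92.85 TPM in replicate 2 and 86.5 in replicate 1, and those with the KCC2a first exon had 30.0 and 36.4 TPM. KCC2b-start transcripts thus made up 68.8% and 62.2% of the gene's TPM (65.5% ± 4.66), and KCC2a-start transcripts 22.2% and 26.1% (24.2% ± 2.76). The remaining 8.95% and 11.6% came from retained-intron transcripts that start elsewhere. The ratio of KCC2b-start to KCC2a-start transcripts was 3.10 in replicate 2 and 2.38 in replicate 1, a mean of 2.71-fold (log2 1.44 ± 0.268), and the ranges of the starts did not overlap. In the kallisto-layout table the same ratio was 2.56 and 2.22 in replicates 2 and 1, a mean of 2.38-fold (1.25 ± 0.144).

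**Figure D2:**
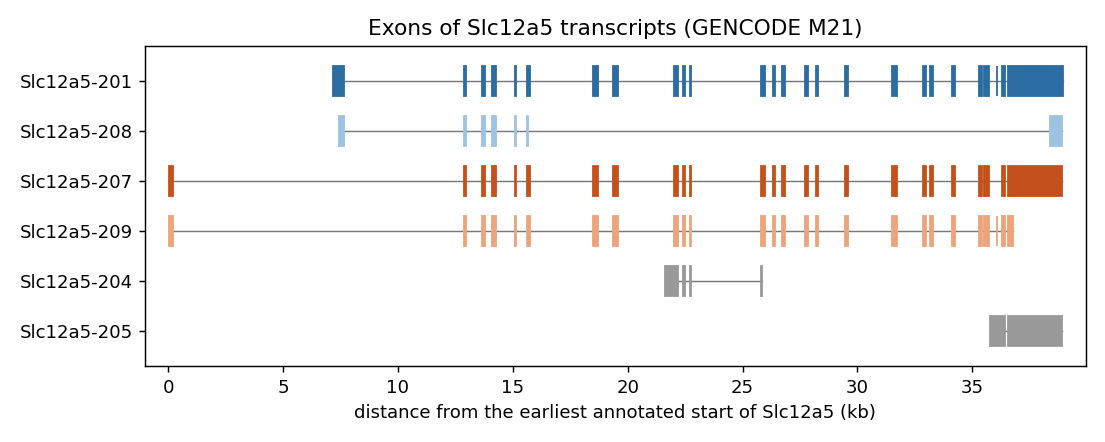
Exons (boxes, to scale) of the Slc12a5 transcripts with 5% or more of the gene's TPM in either table, and of Slc12a5-205, by distance in kb from the earliest annotated start. The KCC2a first exons of Slc12a5-207 and Slc12a5-209 lie at the left, the KCC2b first exon of Slc12a5-201 and Slc12a5-208 about 7.142 kb downstream, and Slc12a5-209 has a short last exon.

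The complete KCC2b transcript Slc12a5-201 led the gene, with 45.3% of its TPM in replicate 2 and 36.6% in replicate 1 (40.9% ± 6.15). In the kallisto-layout table it held more, 59.4% and 50.4% (54.9% ± 6.34). The complete KCC2a transcripts Slc12a5-207 and Slc12a5-209 together held 22.2% and 26.0% (24.1% ± 2.67), and 25.1% and 24.5% in the kallisto-layout table (24.8% ± 0.43). The ratio of complete KCC2b to complete KCC2a transcripts was 2.04 in replicate 2 and 1.40 in replicate 1 (log2 0.76 ± 0.378, on the edge of the 2 SD rule), against 2.37 and 2.06 in the kallisto-layout table (1.14 ± 0.142). The 2 forms are thus split in the same order by both tables, with KCC2b ahead in each library.

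Which KCC2a transcript carried the signal was not settled. Slc12a5-207, without the small exon, held 22.2% of the TPM in replicate 2 and 21.2% in replicate 1, but 6.28% and 4.23% in the kallisto-layout table. Slc12a5-209, with the small exon, held 0% and 4.77%, but 18.8% and 20.3% in the kallisto-layout table. The deposited posterior SD of the count of Slc12a5-209 was 47.6 in replicate 2, where it was estimated at 0 counts, and 145 in replicate 1, with 466 counts. The last exon of Slc12a5-209 is annotated with 190 bases and that of Slc12a5-207 with 2343, and no annotated KCC2a transcript has both the small exon and the long last exon. The share of KCC2a transcripts with the ggagtgggaaaactt exon printed above therefore cannot be read from these tables.

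Slc12a5-208 is the other transcript over which the tables parted. It shares the KCC2b first exon, has 7 exons and a coding sequence of 231 residues, and ends in an exon of 529 bases within the last exon of Slc12a5-201. It held 22.85% of the TPM in replicate 2 and 24.75% in replicate 1, from 731 and 766 counts, but 4.89% and 9.00% in the kallisto-layout table, from 125 and 232 counts. As annotated it lacks most of the exons of Slc12a5-201, so the KCC2b-start share above includes RNA that would not encode a whole cotransporter. The retained-intron transcript Slc12a5-204 held 5.90% and 7.53% in replicates 2 and 1.

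**Figure D3:**
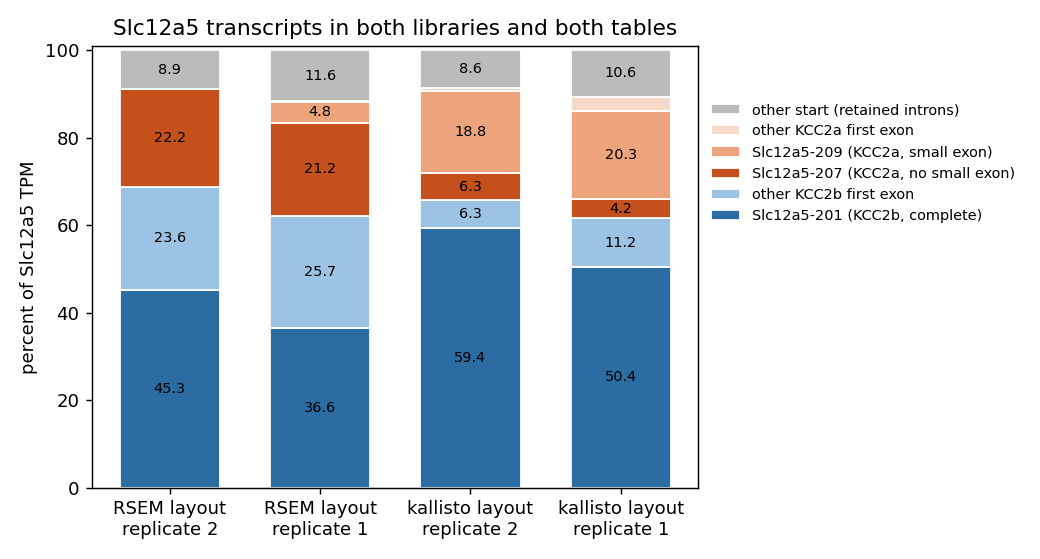
Percent of Slc12a5 TPM (bars from 0) by transcript in replicate 2 and replicate 1, for the RSEM-layout table and the kallisto-layout table. KCC2b-start transcripts (blue) hold between 61.7% and 68.8% in each bar, while the KCC2a signal (orange) moves from Slc12a5-207 in the RSEM layout to Slc12a5-209 in the kallisto layout.

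Among the other cotransporter genes, Slc12a2 had a single coding transcript. Slc12a2-201, with 27 exons and 1206 residues, held 96.9% and 97.0% of the TPM of Slc12a2 in replicates 2 and 1. Slc12a9-201 (914 residues) held 92.2% and 73.1%, with an incomplete coding transcript, Slc12a9-204, at 0% and 11.85% from 0 and 9.46 counts. Slc12a4 was divided between Slc12a4-202 (1085 residues), with 75.1% and 79.2%, and Slc12a4-201 (1087 residues), with 13.5% and 10.1%. In the kallisto-layout table Slc12a4-201 led in replicate 2, with 60.3%, against 37.4% in replicate 1, so the leading Slc12a4 transcript was not settled.

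Slc12a7-201, the complete coding transcript with 1083 residues, held 54.7% of the TPM of Slc12a7 in replicate 2 and 34.55% in replicate 1. A retained-intron fragment of 356 bases, Slc12a7-206, had 0 and 5.53 counts but 0% and 38.0% of the TPM, since TPM divides by length. Counted in reads, Slc12a7-201 held 76.7% and 75.3%. Complete coding transcripts alone gave Slc12a7 1.08 TPM in replicate 2 and 0.97 in replicate 1 (1.025 ± 0.0778).

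Wnk1 had 26 annotated transcripts, and complete coding transcripts held 42.4% of its TPM in replicate 2 and 38.9% in replicate 1, but 82.1% and 77.9% of its counts. The leading transcript, Wnk1-202 with 2377 residues, held 28.85% and 26.5%. Other partial transcripts took much of the rest. The retained-intron transcript Wnk1-208, 2934 bases long, held 14.3% and 17.8%, from 556 and 674 counts. The incomplete coding transcript Wnk1-216, 843 bases long, held 14.0% and 13.1%, from 142 and 130 counts. By the kallisto-layout estimates Wnk1-208 held only 0.175% and 4.77%, and Wnk1-216 15.4% and 14.4%. In the kallisto-layout table complete coding transcripts held 52.5% and 40.2%. Transcripts overlapping the single exon of Wnk1-218 (chr6:119962308-119963733, 1426 bases, which holds the HSN2 exon known from the nervous system) held 9.48% and 9.36% (9.42% ± 0.0849), and 11.9% and 10.1% in the kallisto-layout table. A pseudogene on the opposite strand, Gm16199, lies within Wnk1 and had 55.6 and 39.8 counts.

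Wnk2-205, with 30 exons and 2149 residues, led Wnk2 with 53.7% of its TPM in replicate 2 and 48.4% in replicate 1. Wnk2-201 and Wnk2-211, which encode 2065 residues each, held 4.40% and 14.9% in replicate 2 and 21% and 0% in replicate 1. In sum they were close, and posterior SDs of 253 to 365 counts for the transcript pair left the division of reads between them uncertain. The incomplete Wnk2-206 held 15.5% and 15.1%. By the kallisto-layout estimates Wnk2-205 led with less, 38.7% and 41.0% in replicates 2 and 1. Wnk2-201 and Wnk2-211 there held 8.20% and 13.8% in replicate 2 and 9.88% and 14.8% in replicate 1. Wnk2-207, at 0% in both libraries of the RSEM-layout table, held 10.8% and 6.28% in the kallisto-layout table.

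Most of the TPM of Wnk3 was in 3 transcripts. Wnk3-206 (1710 residues) held 41.6% in replicate 2 and 29.05% in replicate 1, and Wnk3-205 (1757 residues) held 17.65% and 26.55%. They differ by a stretch of 141 bases, 47 codons, at chrX:151293901-151294041 on the plus strand, which Wnk3-205 carries. It is shown because the estimated shares of the pair differ between the libraries, a difference that was not tested.
Wnk3-205 stretch: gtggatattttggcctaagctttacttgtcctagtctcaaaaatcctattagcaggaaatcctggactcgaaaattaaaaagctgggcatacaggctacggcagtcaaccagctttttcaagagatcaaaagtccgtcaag

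The estimate of Wnk3-206 exceeded that of Wnk3-205 by far in replicate 2. In replicate 1 they had 438 and 411 counts, with posterior SDs of 78.4 and 80.2, so their order there was not settled. The kallisto-layout table gave Wnk3-206 44.8% and 30.3% and Wnk3-205 11.3% and 21.5% in replicates 2 and 1, and it gave Wnk3-201, at 0% in both libraries of the RSEM-layout table, 7.20% and 8.62%. The posterior SD of both transcripts was 78.4 to 82.4 counts, on 292 to 669 counts. The third, Wnk3-203, a noncoding transcript over the 3' end of the gene, held 40.7% and 41.7%, so the coding transcripts gave Wnk3 8.60 and 8.06 TPM. The antisense gene A230072E10Rik overlaps Wnk3 and had 30 and 22 counts. Stk39-201 (556 residues) held 76.4% and 81.4% of Stk39, and the retained-intron transcript Stk39-202 16.4% and 10.7%. By the kallisto-layout estimates Stk39-201 held 57.5% and 78.8% in replicates 2 and 1, and Stk39-202 18.2% and 12.7%. The noncoding Stk39-205 held 20.3% and 5.88% there, against 1.56% and 0% in the RSEM-layout table. No source used here says whether the counting used strand.

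**Figure D4:**
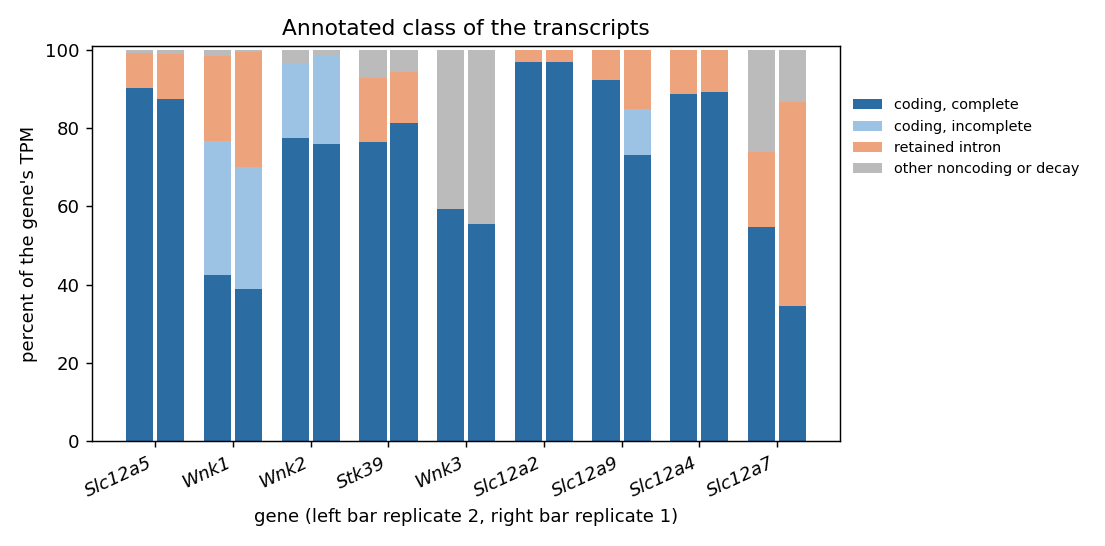
Percent of each gene's TPM (bars from 0) by the annotated class of its transcripts, replicate 2 in the left bar and replicate 1 in the right bar. Complete coding transcripts hold 96.9% and 97.0% of Slc12a2, 42.4% and 38.9% of Wnk1, and 54.7% and 34.55% of Slc12a7.

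The libraries were compared gene by gene by an exact binomial test, two-sided, of their counts, with TMM-scaled library sizes and Benjamini-Hochberg adjustment over the 18332 genes that averaged 10 counts or more. The test asks whether these libraries differ by more than counting error, and no condition is compared. Of the 9 genes, 2 differed, both higher in replicate 1, where 22.7% of all genes tested differed, 12.5% higher in replicate 2 and 10.2% higher in replicate 1. A share of 2 in 9 is close to that background. The median log2 ratio, replicate 2 over replicate 1, was 0.00 over the 9 genes and over all genes tested.

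Slc12a2 was lower in replicate 2, with 1771 counts there and 1999 in replicate 1. Its log2 ratio was -0.31 (95% counting interval -0.41 to -0.22, adjusted p = 8.6e-10, exact binomial test). Over the 12638 genes that averaged 100 counts or more, the median absolute log2 ratio was 0.11 and the 95th percentile 0.45, so Slc12a2 lay inside the range of most genes. Wnk1 was lower in replicate 2 by a smaller margin, with 6701 and 6724 counts in replicates 2 and 1 and a log2 ratio of -0.14 (interval -0.19 to -0.09, adjusted p = 1.8e-07, exact binomial test). When edgeR's exact test was given a coefficient of variation of 0.1, neither was called, with an adjusted p of 1 for both. With library sizes scaled to the ERCC spike-ins, synthetic RNAs added to the sample, Wnk1 was not called (-0.04, adjusted p = 0.283, exact binomial test) and Slc12a2 still was (-0.21, adjusted p = 8.6e-05). Over the other alternatives adjusted p by the exact binomial test ran from 1.3e-09 to 9.2e-09 for Slc12a2 and from 2.8e-07 to 2e-05 for Wnk1.

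The other 7 genes did not differ beyond counting noise with TMM scaling. Slc12a5 had a log2 ratio of 0.03 (95% counting interval -0.01 to 0.06, adjusted p = 0.321, exact binomial test), Wnk2 0.01, Wnk3 -0.02, Stk39 0.00, Slc12a4 -0.01, Slc12a9 0.07 and Slc12a7 0.07. The interval was widest for Slc12a7, from -0.27 to 0.42. Spike-in scaling moved the median of all genes by 0.11 and added Slc12a5 (0.14), Wnk2 (0.12) and Slc12a9 (0.18) to the genes called higher in replicate 2. It moved the share of called genes that were higher in replicate 2 to 84.7%, against 54.9% with TMM.

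Markers of other cells and regions also differed between the libraries. Of all genes tested, 12.5% were called higher in replicate 2 and 10.2% higher in replicate 1. The 8 myelinating oligodendrocyte genes summed to 943 TPM in replicate 2 and 1771 in replicate 1, and 8 of 8 were called higher in replicate 1. The choroid plexus genes summed to 50.1 and 93.0 TPM, with 4 of the 6 tested called higher in replicate 1, and the thalamic genes to 27.7 and 49.2 TPM, with 4 of 4. Kcne2 of the choroid plexus list had 5 and 7 counts and Gbx2 of the thalamic list 0 and 2. The immature neuron genes ran the other way, with 141 and 98.5 TPM and 5 of 5 called higher in replicate 2. Calls went both ways for astrocyte genes (2 higher in replicate 2 and 2 in replicate 1, of 5), endothelial genes (1 and 2, of 4) and interneuron genes (3 and 1, of 5). Higher in replicate 2 alone were 1 of 4 oligodendrocyte precursor genes, 2 of 4 excitatory neuron genes and 2 of 3 microglia genes. Prox1 (log2 0.44) and Fibcd1 (log2 0.26), the hippocampal region genes chosen after their values were seen, were also called higher in replicate 2. The part of any of the cells named here in the lower Slc12a2 and Wnk1 of replicate 2 was not tested. In whole tissue fewer cells of a type and less RNA per cell cannot be told apart.

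**Figure D5:**
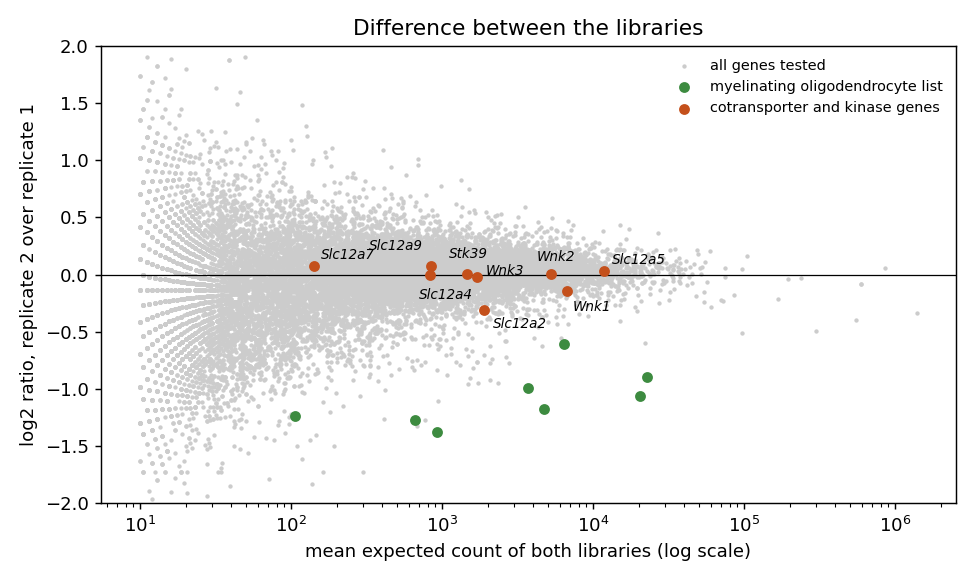
Log2 ratio of replicate 2 over replicate 1 against mean expected count (log axis) for all genes tested (grey), the 9 cotransporter and kinase genes (orange) and 8 myelinating oligodendrocyte genes (green); 83 genes beyond 2 in either direction are off the plot. Slc12a2 at -0.31 and Wnk1 at -0.14 lie below the line, and the other 7 lie between -0.02 and 0.07.

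Of 27 further genes of the pathway, 25 reached the count minimum, 4 were called higher in replicate 2 and 4 higher in replicate 1, where 12.5% and 10.2% of all genes tested were. Their median log2 ratio was 0.00. Other cotransporter genes of the family were low: Slc12a3, which encodes the thiazide-sensitive cotransporter, had 0.37 and 0.13 TPM in replicates 2 and 1, Slc12a8 0.49 and 0.81, and Slc12a1, which encodes the kidney cotransporter NKCC2, 2 and 3 counts. Wnk4 was the lowest of the WNK genes, with 2.56 and 2.90 TPM, and was called higher in replicate 1 (log2 -0.47, adjusted p = 0.0279, exact binomial test).

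Genes around the kinases were measured at all levels. Cab39, the scaffold MO25 that activates SPAK, had 57.3 TPM in replicate 2 and 52.7 in replicate 1, and its relative Cab39l 6.65 and 7.69. The ubiquitin ligase that removes WNK kinases uses Cul3, with 52.0 and 54.7 TPM, and the adaptors Klhl2, with 89.3 and 92.1, and Klhl3, with 15.1 and 14.9. Klhl2 was called higher in replicate 1 (log2 -0.18, adjusted p = 4.6e-10, exact binomial test). The adaptor Klhl2 thus had more RNA per length than Klhl3 in both libraries.

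Other chloride and bicarbonate carriers were also measured. The sodium-driven bicarbonate transporter gene Slc4a10 had 69.0 TPM in replicate 2 and 76.0 in replicate 1, Slc4a8 31.4 and 34.4, and the anion exchanger gene Slc4a3 63.2 and 59.15. Slc4a10 and Slc4a8 were called higher in replicate 1 (log2 -0.14 and -0.10). The chloride channel gene Clcn2 had 22.0 and 25.3 TPM and the exchanger gene Clcn3 63.5 and 60.0. Of the carbonic anhydrases, Car2 had 38.0 and 36.0 TPM and the neuronal Car7 8.75 and 8.54, none of them called.

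Of the 5 genes of KCC2's protein partners, 3 were called higher in replicate 2, as were 12.5% of all genes tested. Epb41l1, which encodes the cytoskeletal protein 4.1N, had 140 and 133 TPM in replicates 2 and 1 (log2 0.14), Arhgef7, which encodes the exchange factor beta-PIX, 74.7 and 65.7 (0.18), and Neto2, an auxiliary subunit of kainate receptors that binds KCC2, 26.35 and 23.0 (0.12). Ckb, the brain creatine kinase, had 565 and 536 TPM and Pacsin1 115 and 113, neither called. Of the factors known to act on Slc12a5, Egr4 had 14.15 and 13.4 TPM and Rest, the neuronal repressor, 2.47 and 2.18, neither called, while Usf2 was called higher in replicate 2 (log2 0.14) and Usf1 was not (0.01).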

How the data were processed

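The 2 libraries are total RNA of hippocampus, 1 group. The deposited gene and first transcript tables are in RSEM layout and hold expected counts (not normalised), TPM scaled over all entries including spike-ins, each transcript's percent of its gene's TPM, and a posterior SD of the count, per the file headers. The second deposited transcript tables are in kallisto layout, with estimated counts and TPM, per the file headers. The authors used mm10 and GENCODE M21, per the notes deposited with the tables; no source used here gives the aligner, the quantifiers or their versions. Each gene table had 81881 entries: 55536 genes, 97 spike-ins and 26248 that name no gene. The last made up 9.4e-06% of all counts in replicate 2 and 2.7e-05% in replicate 1 and, like the spike-ins (0.484% and 0.516%), were left out of gene totals and tests.

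Expected counts were rounded, scaled by TMM (edgeR 4.0.16, limma 3.58.1, R 4.3.3) and compared with an exact two-sided binomial test, Benjamini-Hochberg adjusted over all genes with a mean count of at least 10, at a threshold of 0.05. Log2 ratios have a prior count of 0.5. edgeR's quasi-likelihood test has no residual degrees of freedom with 1 library a side. Intervals are exact Clopper-Pearson 95% intervals on the counts and cover counting error only. Gene pairs were called different where the log2 TPM ratio had 1 sign in both libraries and its mean exceeded 0.5 and 2 SD. Python 3.11.15, numpy 2.4.6, scipy 1.17.1, pandas 2.3.3 and matplotlib 3.10.9 were used, and DESeq2 1.42.0 size factors served as an alternative.

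The 9 genes, the pathway and marker lists and the pairs were chosen with earlier results of these data known. Named are the 9 genes, those of their transcripts with a mean share of at least 5% in either table, and any pathway gene; not every such transcript is described, and 1 gene counted in the pathway list and 1 exon sequence are not reported here. Alternatives were the kallisto-layout table, scaling to protein-coding genes, a pseudocount of 1 TPM, shares of counts, spike-in and DESeq2 scaling, edgeR's exact test with the coefficient of variation set to 0.1, no count minimum, and leaving out each library. Complete coding transcripts as an alternative were chosen after seeing the data.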

Additional observations from a re-analysis of the deposited data

How the results depend on the processing

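Levels in TPM depended on the scale, while Slc12a5 stayed highest and Slc12a7 lowest throughout. The kallisto-layout table gave Slc12a5 187, Wnk1 88.7, Wnk2 61.7, Stk39 41.7, Slc12a2 21.9, Slc12a9 20.7, Wnk3 19.7, Slc12a4 17.6 and Slc12a7 3.60 TPM. Scaled to protein-coding genes they were 289 for Slc12a5, 137 for Wnk1, 90.2 for Wnk2, 48.4 for Stk39, 30.6 for Wnk3, 30.2 for Slc12a2, 30.1 for Slc12a9, 25.3 for Slc12a4 and 5.055 for Slc12a7. Complete coding transcripts alone, chosen after seeing the data, gave Slc12a5 121.7, Wnk2 32.8, Wnk1 26.4, Stk39 18.1, Slc12a9 11.7, Slc12a4 10.7, Wnk3 8.33 and Slc12a7 1.025 TPM, and Slc12a2 moved by less than 1 SD. The log2 ratio of Wnk1 to Wnk2 was 0.51 ± 0.29 in the kallisto-layout table, not called, and -0.31 with complete coding transcripts. All other pairs kept their direction and their call under each alternative run. By counts in place of TPM, the share of KCC2a-start transcripts was 31.5%, of complete KCC2a 31.5% and of complete KCC2b 58.5%, and complete KCC2b was 54.9% in the kallisto-layout table. Spike-in scaling gave 6516 genes differing between the libraries, 5516 of them higher in replicate 2, and 4 of the 9 genes; edgeR's exact test with the coefficient of variation set to 0.1 gave 173, 53 higher in replicate 2 and 120 in replicate 1, and 0 of the 9, against 4167 and 2. There were 4388 with DESeq2 size factors, 3849 with no count minimum and 5118 from the kallisto-layout estimates. The log2 ratio of Slc12a2 was -0.31 with edgeR (adjusted p = 1), and that of Wnk1 -0.14 with edgeR (adjusted p = 1) and -0.035 with spike-ins (adjusted p = 0.283). With spike-ins Slc12a5 had 0.14 (adjusted p = 8.5e-12), Slc12a9 0.18 (0.0318) and Wnk2 0.12 (2e-04), and in the kallisto-layout table Slc12a5 had 0.071 (8.1e-04). The cause of these shifts was not tested. No paired analysis was possible because the series has 1 group. The difference between libraries cannot be taken with either left out. Short transcripts with few reads limit the shares of Slc12a7, Slc12a9 and Wnk1.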
